A study of Mus musculus with 18 samples.

Results

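The 3 libraries of spermatocytes isolated at postnatal day 18 (P18) from male mice labelled Zfp541-/- (KO) were set against the 3 P18 testis libraries labelled Zfp541-/-. These 6 libraries, of 18 in the series, were chosen by their labels alone. The series is poly(A) RNA sequencing of C57BL/6J mice, with 3 libraries in each of 6 groups: testis at P14, testis at P18 and spermatocytes at P18, each as KO and as heterozygote (Zfp541+/-, Het). The P18 Het spermatocyte and testis libraries, which carry 1 mutant allele, served as the reference for what an isolated spermatocyte fraction is enriched in when Zfp541 is present. The labels call the libraries biological replicates and do not say whether a spermatocyte library and a testis library came from the same animals. The p-values below therefore measure the spread between these samples, which may be partly technical. How the spermatocytes were isolated is not given in the sources used here.

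Male germ cells divide by mitosis as spermatogonia and then enter meiosis, in whose long prophase homologous chromosomes break, pair and recombine along a protein axis. During the pachytene stage of that prophase, spermatocytes switch on many genes that are used later, among them genes for the sperm flagellum, the acrosome and the pachytene piRNA pathway. ZFP541 is a zinc-finger protein with ELM2 and SANT domains that is found in spermatocytes together with KCTD19 and histone deacetylases, and male mice without it are sterile with germ cells that stop in meiotic prophase.

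Each value below is a level, the deposited RPKM (spermatocytes) or FPKM (testis) after rescaling between libraries. Both units divide reads by gene length and library depth, so levels can be compared between genes. The KO spermatocyte libraries held 10.7 to 13.8 megareads and the KO testis libraries 12.8 to 16.9, recovered from what 1 read is worth in each library. In KO spermatocytes 3 reads on a gene of 1 kb amounted to a level of 0.217 to 0.281, and 15262 to 15384 genes reached a level of 1 (18187 to 18434 in KO testis). Fraction could not be told apart from the deposited unit or from the set in which the libraries were made, and a few RNAs differed between the sets by a wide margin in both genotypes. The short RNA Bc1 had a mean level of 2461 in KO spermatocytes and 13.5 in KO testis, and Mir6236 had 48777 and 688. Among mitochondrial transcripts, mt-Atp6 had a mean level of 0.119 in KO spermatocytes and 53.8 in KO testis while mt-Co1 had 5797 and 6293. Of the 50-base words of mt-Atp6, 99.5% also occur in other annotated genes. For mt-Atp8, with means of 0.546 and 81.4, 0% of these words do, and 21.1% of its exon bases lie in other genes. Why these transcripts differed was not tested. The median log2 difference of protein-coding genes in KO went from -0.83 in the shortest of 5 bins of annotated length to 0.08 in the longest, and from -0.89 to 0.23 in Het.

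The targeted gene was still read in KO libraries, at a lower level than in Het. Zfp541 (chromosome 7, 16061814 to 16096334, GRCm38) had levels of 13.9, 12.4 and 12.6 in KO spermatocytes and 11.4, 9.32 and 10.6 in KO testis. Its Het levels were 39.5, 32.8 and 58.3 in spermatocytes and 26.2, 22.6 and 20.9 in testis, so no KO library reached a Het library. Reads over the whole gene do not show whether the deleted part was read. In KO the spermatocyte libraries lay above the testis libraries without overlap, but the log2 difference of 0.31 ± 0.18 (SE; 95% interval -0.08 to 0.69) did not pass limma's test (Benjamini-Hochberg adjusted p = 0.156). It was 0.46 with an adjusted p of 0.00297 when the 6 KO libraries were fitted alone, and it passed the test at 0.50 with median-of-ratios scaling and at 0.49 and 0.31 without Het spermatocyte replicate 2 or 3. In Het it was 0.86 ± 0.18 (adjusted p = 0.00169), and the difference between genotypes, -0.55, did not pass the interaction test (adjusted p = 0.323).

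Of its 6 listed partner genes, 3 (50%) were higher in KO spermatocytes than in KO testis, against 22.9% of all genes tested. Trerf1, an ELM2-SANT protein of deacetylase complexes, had levels of 8.13, 9.83 and 10 against 4.59, 5.03 and 5.04 (log2 0.86 ± 0.10, limma adjusted p = 2.53e-05). Hdac2, a histone deacetylase, differed by 0.40 ± 0.09, and Dnttip1, a subunit of the mitotic deacetylase complex, by 0.33 ± 0.08. Kctd19 had means of 30.9 ± 3.30 and 23.5 ± 0.805 (SD, n = 3) and did not pass limma's test with all 12 libraries (adjusted p = 0.143), though Kctd19 did at 0.57 and 0.38 without Het spermatocyte replicate 2 or 3. Elmsan1 (-0.13 ± 0.19) and Hdac1 (-0.01 ± 0.10, with 35.3% of its 50-base words shared with other genes) were not called, and their signs turned with the scaling.

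Across the 19928 genes tested, 4567 (22.9%) were higher and 7706 (38.7%) lower in KO spermatocytes than in KO testis at an adjusted p under 0.05, and the median log2 difference was -0.23. The 22.9% and 38.7% are the shares to set beside the counts of list members in KO. Of the called genes, 909 were higher and 4760 lower by a log2 difference of at least 1. In Het 5421 genes (27.2%) were higher and 6308 (31.7%) lower, with a median of -0.04. Median-of-ratios scaling turned the Het balance to 6380 higher and 5664 lower (median 0.06), and the values as deposited gave 3956 and 7451 (34.7% higher among the called, against 46.2%). The balance of the KO calls depended on the scaling: 37.2% of them were higher here and 47.8% with median-of-ratios scaling, which gave 5872 higher and 6424 lower and a median of -0.07. Leaving out Het spermatocyte replicate 2, which enters only through the shared scaling and spread, had a like effect on the split (47.3% higher). The libraries of the KO groups did not overlap for 27.6% of genes in the higher direction and 43.8% in the lower direction.

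The KO fraction held little Sertoli or Leydig cell RNA. All 26 Sertoli markers and all 11 Leydig markers were lower in KO spermatocytes than in KO testis, with medians of -4.32 and -3.27 against -0.23 over all genes tested. The summed level of the Sertoli markers was 67.6 to 133 in the KO spermatocyte libraries and 3038 to 3074 in KO testis, so the fraction kept 3.24% of it. In Het the fraction kept 5.61%. Fewer cells of a type and less RNA per cell cannot be told apart in these bulk samples.

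Among single genes, Insl3, the Leydig cell peptide hormone, had levels of 0.131, 0 and 0.697 in KO spermatocytes and 138, 115 and 128 in KO testis (log2 -7.46 ± 0.32, limma adjusted p = 2.22e-08). Of its 50-base words 61.9% also occur in other annotated genes. Hsd3b6, a steroidogenic enzyme of Leydig cells, had 0, 0.200 and 0.121 against 45.6, 34.5 and 38.9. Defb19, a defensin made by Sertoli cells, had levels of 3.71, 5.96 and 10.7 against 455, 418 and 436 (-6.02 ± 0.34). Rhox8, a Sertoli homeobox gene on the X chromosome, differed by -6.00 ± 0.34 and Cst12, a cystatin-related gene, by -5.79 ± 0.26. The groups did not overlap for any of these genes. Sox9, the transcription factor that defines Sertoli cells, stood at 0.983, 1.07 and 1.59 against 44.9, 47.5 and 43.7. It was low in every KO spermatocyte library but above the level of 3 reads on a 1-kb gene.

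Blood and interstitial markers were lower too, with the exception of peritubular myoid cells, the contractile cells around the tubules. All 5 tested erythroid genes were lower, and the globin genes Hba-a1 and Hbb-bt were at 0 in the 3 KO spermatocyte libraries. Of 17 tested macrophage markers 13 were lower and 1 higher, all 8 stromal markers were lower, and of 5 tested endothelial markers 4 were lower and 1, Egfl7, higher. The Egfl7 call was lost in 5 of the 12 fits that left out 1 library, those without any 1 KO spermatocyte library or KO testis replicate 1 or 3. Of 9 myoid markers 1, Des (muscle desmin), was lower (-1.02 ± 0.38), and the median was -0.37. The Des call was lost without Het spermatocyte replicate 2, KO spermatocyte replicate 1 or 2 or any 1 KO testis library. The summed myoid level was 101, 203 and 342 in KO spermatocyte replicates 1, 2 and 3 and 250 to 312 in KO testis, so the groups overlapped and the fraction kept 76.5%. Leaving out KO spermatocyte replicate 1 turned the median to 0.04. Acta2, smooth muscle actin, had levels of 28.6, 67.6 and 115 in KO spermatocytes and 73.9, 87.1 and 96.1 in KO testis.

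**Figure D1:**
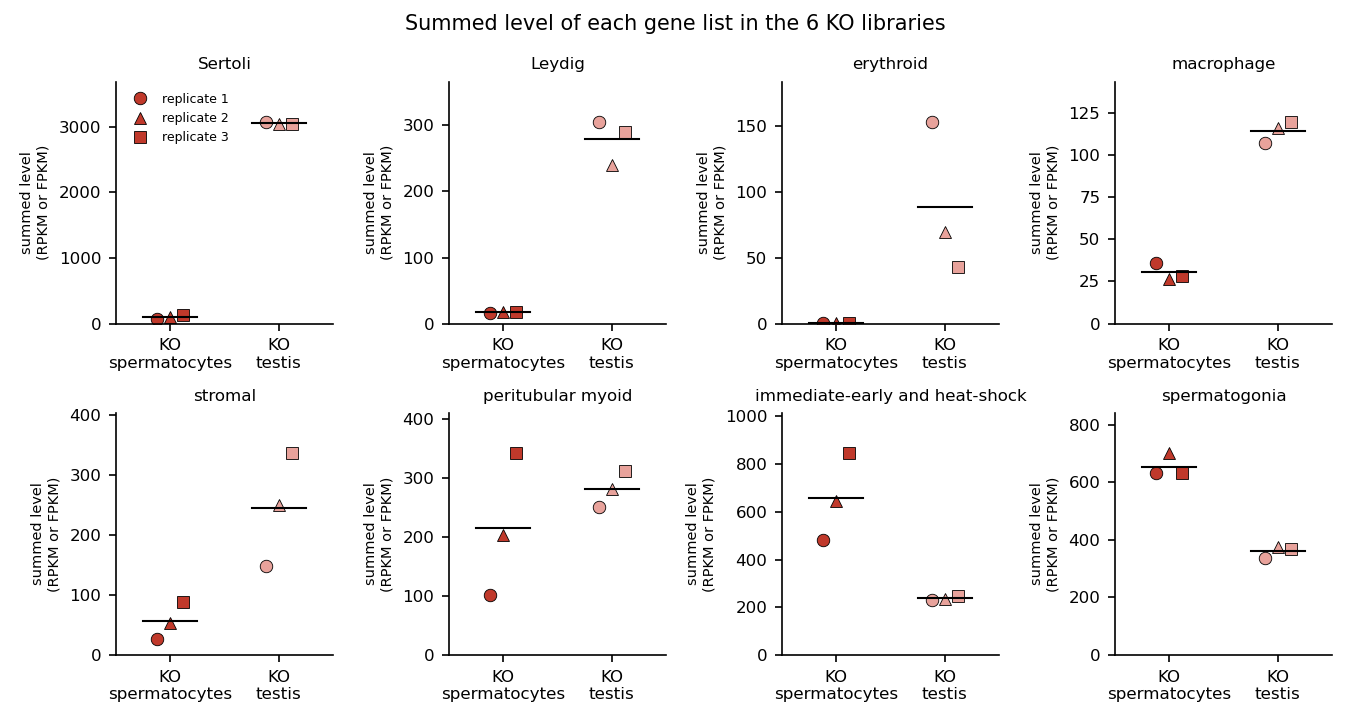
Summed levels of 8 gene lists (RPKM or FPKM, linear axes from 0) in the 3 KO spermatocyte and 3 KO testis libraries, with a marker shape per replicate and a line at the mean of 3. Sertoli, Leydig, erythroid, macrophage and stromal sums are lower in each spermatocyte library than in each testis library, the peritubular myoid sums overlap, and the immediate-early and heat-shock and spermatogonia sums are higher in each spermatocyte library.

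Immediate-early genes, many of them transcription factor genes that cells switch on soon after a stimulus, had the highest median of the lists in KO spermatocytes. Of 24 immediate-early and heat-shock genes 17 were higher and 2 lower, with a median of 1.72. In Het 19 were higher and 2 lower, with a median of 1.65, and no member differed between genotypes by the interaction test. Fosb, a subunit of the AP-1 transcription factor, had levels of 19, 32.3 and 59.4 in KO spermatocytes and 0.350, 0.318 and 0.221 in KO testis (log2 5.41 ± 0.39, limma adjusted p = 5.97e-07). Fos, its relative, had 37.7, 64.0 and 93.8 against 2.91, 1.89 and 1.63. Both genes were higher in each spermatocyte library than in any testis library, with the lowest level in replicate 1 and the highest in replicate 3.

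Egr1, a zinc-finger factor, differed by 2.86 ± 0.30, Nr4a1, an orphan nuclear receptor, by 2.71 ± 0.50, Atf3, a stress-induced factor, by 2.69 ± 0.28, Ccn1, a matrix protein gene, by 2.59 ± 0.44 and Junb, an AP-1 subunit, by 2.47 ± 0.40. The 2 members that were lower were Hspb1, a small heat-shock protein gene (-3.49 ± 0.23), and Klf6, a zinc-finger factor (-1.31 ± 0.22). The summed level of the list was 482, 645 and 845 in KO spermatocyte replicates 1, 2 and 3. Their myoid sums (101, 203 and 342), stromal sums (26.2, 53.6 and 88.0) and Sertoli sums (67.6, 96.3 and 133) had the same order. Leydig sums had it too (15.7, 17.3 and 18.1). Macrophage sums (35.9, 26.8 and 28.5), erythroid sums (0.358, 0.628 and 0.241) and endothelial sums did not. The part of these other cells in the immediate-early levels was not tested.

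Genes of spermatogonia and of early meiosis were higher in the isolated fraction in both genotypes. Of 21 tested spermatogonial genes 13 were higher and 3 lower in KO (median 0.82), and in Het 12 were higher and 2 lower (median 0.57). Dmrtb1, a regulator of the exit from mitosis, had levels of 55.2, 69.8 and 69.5 in KO spermatocytes against 17.4, 22.0 and 19.5 in KO testis (log2 1.70 ± 0.28, limma adjusted p = 0.000361). Kit, the receptor of differentiating spermatogonia, had 28.8, 33.2 and 34.4 against 9.09, 10.5 and 10.1 (1.65 ± 0.14, adjusted p = 1.88e-06). The groups did not overlap for either gene. Etv5 (-1.57 ± 0.11), a stem cell factor that Sertoli cells also express and that shares 24.5% of its 50-base words with other genes, and Neurog3 (-0.88 ± 0.28), a marker of early progenitors, were lower. The Neurog3 call was lost without KO spermatocyte replicate 3 (-0.54) or KO testis replicate 1 (-0.72). Id4 (-0.81) was the other lower member. Genes of stem cells and progenitors did not all go the same way. Gfra1 (1.11), Ret (1.34), Zbtb16 (1.12) and Sall4 (1.52) were higher in KO, and Nanos3 and Bcl6b were not called.

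Of 12 meiotic entry genes 11 were higher and 1 lower (median 0.95, and 1.09 in Het with the same counts). Stra8, which is induced by retinoic acid at meiotic entry, had levels of 110, 112 and 103 against 50.7, 57.6 and 55.2. Mei1 and Tex15, both needed for double-strand break formation or repair, differed by 1.31 ± 0.08 and 1.27 ± 0.14. The exception was Rec8, a meiotic cohesin subunit, with levels of 11.1, 10.5 and 10.5 against 14.1, 14.9 and 16.9 (-0.49 ± 0.13, limma adjusted p = 0.00534). Rec8 was lower in Het spermatocytes too (-0.56 ± 0.13).

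Of 28 genes for break formation and recombination 19 were higher and 1 lower in KO (median 0.50), and 22 higher and 2 lower in Het (median 0.65). Tex11, an X-linked crossover gene, had levels of 73.5, 70.1 and 70.7 against 25.0, 24.7 and 22.4 (log2 1.55 ± 0.11, limma adjusted p = 4.46e-07). Brca2, a loader of recombinases, differed by 1.25 ± 0.13. Spo11, which makes the breaks, had levels of 14.2, 6.96 and 7.68 in KO spermatocytes and 9.74, 8.01 and 8.19 in KO testis, so the groups overlapped (0.08 ± 0.22). In Het it was 0.76 ± 0.22 (adjusted p = 0.0111), and the genotypes did not differ by the interaction test (adjusted p = 0.321).

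Of 19 genes of the chromosome axis and synaptonemal complex 16 were higher and none lower in KO (median 0.72), against 17 higher and none lower in Het (median 0.77). Stag3, a meiotic cohesin subunit, had levels of 122, 102 and 119 against 46.7, 48.8 and 47.2 (1.25 ± 0.12, limma adjusted p = 3.81e-06), and Sun1, which tethers telomeres to the nuclear envelope, differed by 1.10 ± 0.10. Sycp3, the main axis protein, had 433, 391 and 418 against 271, 250 and 235. These genes were higher in every KO spermatocyte library than in every KO testis library. Hormad1, which marks unsynapsed axes, was not called (0.17 ± 0.10, 95% interval -0.04 to 0.38).

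Cell-cycle genes from G2 to metaphase I stayed enriched in KO spermatocytes. Of 38 genes 29 were higher and 2 lower (median 0.82), and 30 were higher and 1 lower in Het (median 0.75). Plk1, the kinase that drives entry into division (chromosome 7, 122159439 to 122169873), had levels of 46.2, 49.6 and 46.9 in KO spermatocytes against 10.3, 12.9 and 13.1 in KO testis (1.94 ± 0.11, limma adjusted p = 1.09e-07). In Het it had 29, 35.7 and 28.7 against 14, 12.5 and 12.3 (1.23 ± 0.11), and the difference between genotypes of 0.71 (95% interval 0.36 to 1.06, unadjusted) did not pass the interaction test after adjustment (adjusted p = 0.0561). Espl1, the protease that frees sister chromatids, differed by 1.65 ± 0.16, and Ccnb1, a cyclin of division, had 19.1, 19.6 and 17.7 against 11.1, 10.6 and 10.1. The members that were lower were Cks2, a cyclin-dependent kinase subunit with 29.7% of its 50-base words in other genes (-0.87 ± 0.11), and Pttg1, the inhibitor of separase (-0.84 ± 0.22). Ccna1, the cyclin of late spermatocytes, was at 0.443, 0.591 and 0.552 in KO spermatocytes and 0.437, 0.318 and 0.375 in KO testis, and at 3.82 to 16.7 in Het spermatocytes.

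**Figure D2:**
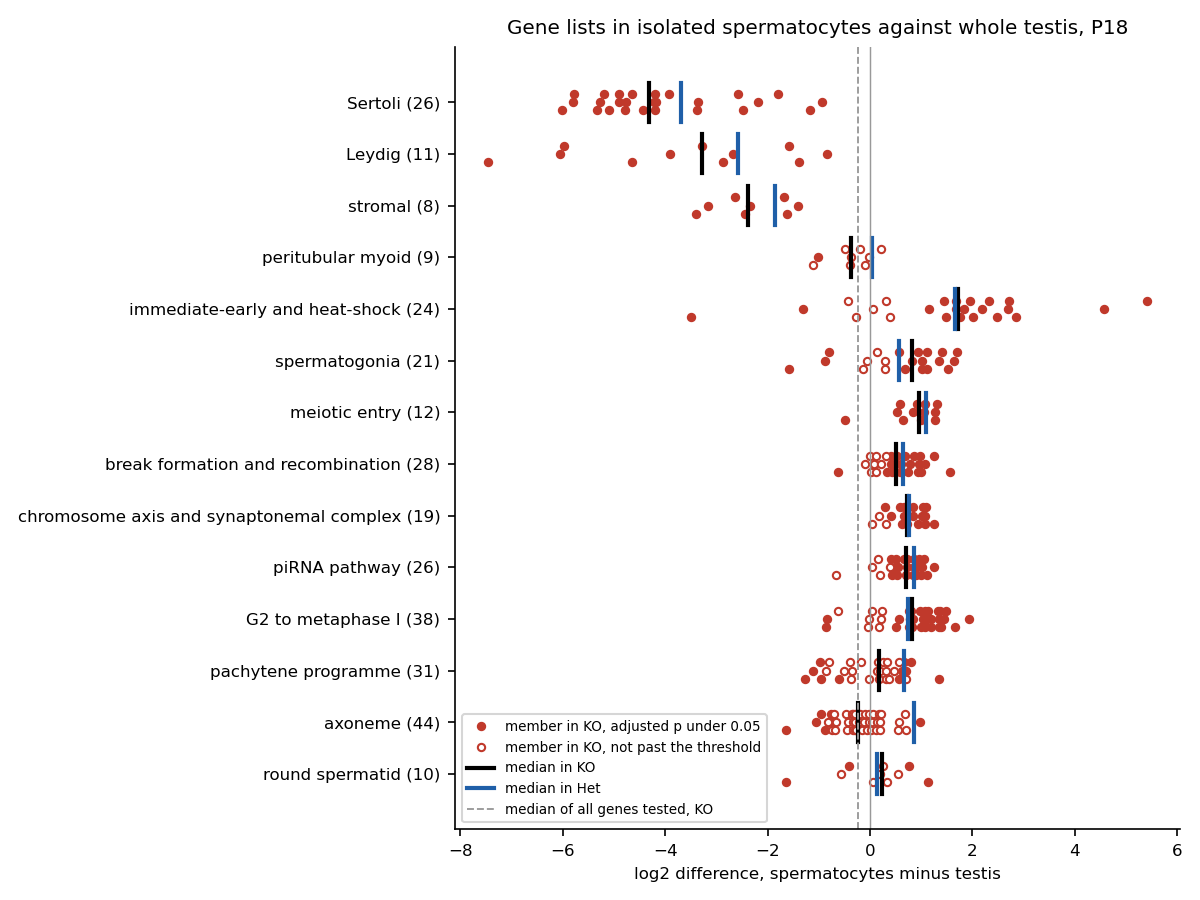
Log2 difference of spermatocytes minus testis in KO for the tested members of 14 gene lists (number tested in brackets); filled points passed an adjusted p under 0.05, black bars are the KO medians, blue bars the Het medians, and the dashed line is the median of all genes tested in KO (-0.23). The black and blue bars lie close together for most lists, while for the axoneme list the KO median is -0.24 and the Het median 0.85.

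The piRNA pathway, which silences transposons and cuts transcripts with small RNAs, was mostly higher in the fraction. Of 26 genes 21 were higher and none lower in KO (median 0.71), against 25 higher and none lower in Het (median 0.86). The 5 not called in KO were Piwil1, Tdrd6, Gtsf1, Exd1 and Spocd1. Mov10l1, the helicase that starts piRNA production, had levels of 160, 155 and 186 against 67.6, 72.6 and 69.2 (1.25 ± 0.09, limma adjusted p = 5.15e-07). Piwil2, a PIWI protein present from spermatogonia onwards, had 119, 124 and 138 against 53.7, 61.8 and 58.9. Piwil1, the PIWI protein of pachytene piRNAs, had the most negative difference of the list, with 8.83, 9.18 and 13.8 in KO spermatocytes against 15.6, 18.2 and 16.7 in KO testis. Each of these KO spermatocyte libraries lay under each KO testis library, while Het spermatocytes had 198, 174 and 326 against 128, 95 and 67.7.

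For Piwil1 the KO difference was -0.66 ± 0.27 (limma adjusted p = 0.0516) and the Het difference 1.25 ± 0.27 (adjusted p = 0.00223). The KO difference of Piwil1 passed without Het spermatocyte replicate 3, KO spermatocyte replicate 3 or Het testis replicate 1 or 3 (-0.86 to -0.66). Tdrd6, a Tudor protein of the chromatoid body, had levels of 0.852, 1.66 and 2.01 against 1.27, 1.16 and 1.30 in KO (0.16 ± 0.40) and a difference of 1.41 ± 0.40 in Het. Its interaction did not pass the test (adjusted p = 0.324). Tdrd1, another Tudor protein, stayed higher in KO (0.41 ± 0.15, adjusted p = 0.0348).

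Genes of the pachytene programme were mostly not called in KO. Of 31 genes 6 were higher and 5 lower (median 0.17), against 16 higher and none lower in Het (median 0.66). The KO shares were 19.4% higher and 16.1% lower, against 22.9% and 38.7% of all genes tested. Of the 16, 10 were not higher in KO, but none of the 31 genes passed the interaction test. With the 6 KO libraries fitted alone 13 of 27 tested were higher and 7 lower. Without Het spermatocyte replicate 2 or 3 the count of higher genes was 11 or 12. That of lower genes was 2 without Het spermatocyte replicate 2, KO spermatocyte replicate 1 or KO testis replicate 1, and 3 without KO testis replicate 2 or 3. The Het count of 16 was 9 without Het testis replicate 3. Median-of-ratios scaling gave 11 higher and 2 lower in KO. Transcription regulators were among those that stayed higher. Taf7l, an X-linked TFIID subunit, had levels of 229, 192 and 183 against 78.5, 79.8 and 77.7 (1.34 ± 0.12, limma adjusted p = 2.09e-06). Brdt, a bromodomain protein, differed by 0.80 ± 0.16 (0.88 in Het), Tcfl5, a spermatocyte bHLH factor, by 0.70 ± 0.20, and Rfx2, a regulator of cilium and flagellum genes, by 0.63 ± 0.22. Mybl1, the master regulator of pachytene genes, was not called in KO (0.33 ± 0.15, adjusted p = 0.0819).

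The members that were lower encode products used in late spermatocytes and spermatids. Ldhc, the lactate dehydrogenase of germ cells (chromosome 7, 46861203 to 46878142), had levels of 15.6, 16.3 and 31.4 in KO spermatocytes and 50.9, 49.6 and 47.6 in KO testis (-1.28 ± 0.37, limma adjusted p = 0.0112). In Het it had 642, 560 and 1290 against 574, 386 and 250 (1.02 ± 0.37), and the interaction of -2.30 (95% interval -3.46 to -1.14, unadjusted) did not pass after adjustment (adjusted p = 0.0629). Crisp2, a sperm tail and acrosome protein, had 0.635, 1.41 and 2.08 against 3.83, 3.40 and 2.82 in KO (-1.11 ± 0.41), a call lost without Het spermatocyte replicate 2, KO spermatocyte replicate 1 or 2 or any 1 KO testis library (log2 -1.21 to -0.79). For both genes every KO spermatocyte library was lower than every KO testis library, and every Het library was higher than any KO library. Acr, the acrosomal protease, was lower by 0.98 ± 0.34 on the log2 scale. Hspa2, a testis heat-shock protein, had 113, 130 and 146 against 82.7, 100 and 95.4 in KO without overlap, which did not pass the test (0.47 ± 0.22, adjusted p = 0.0789).

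**Figure D3:**
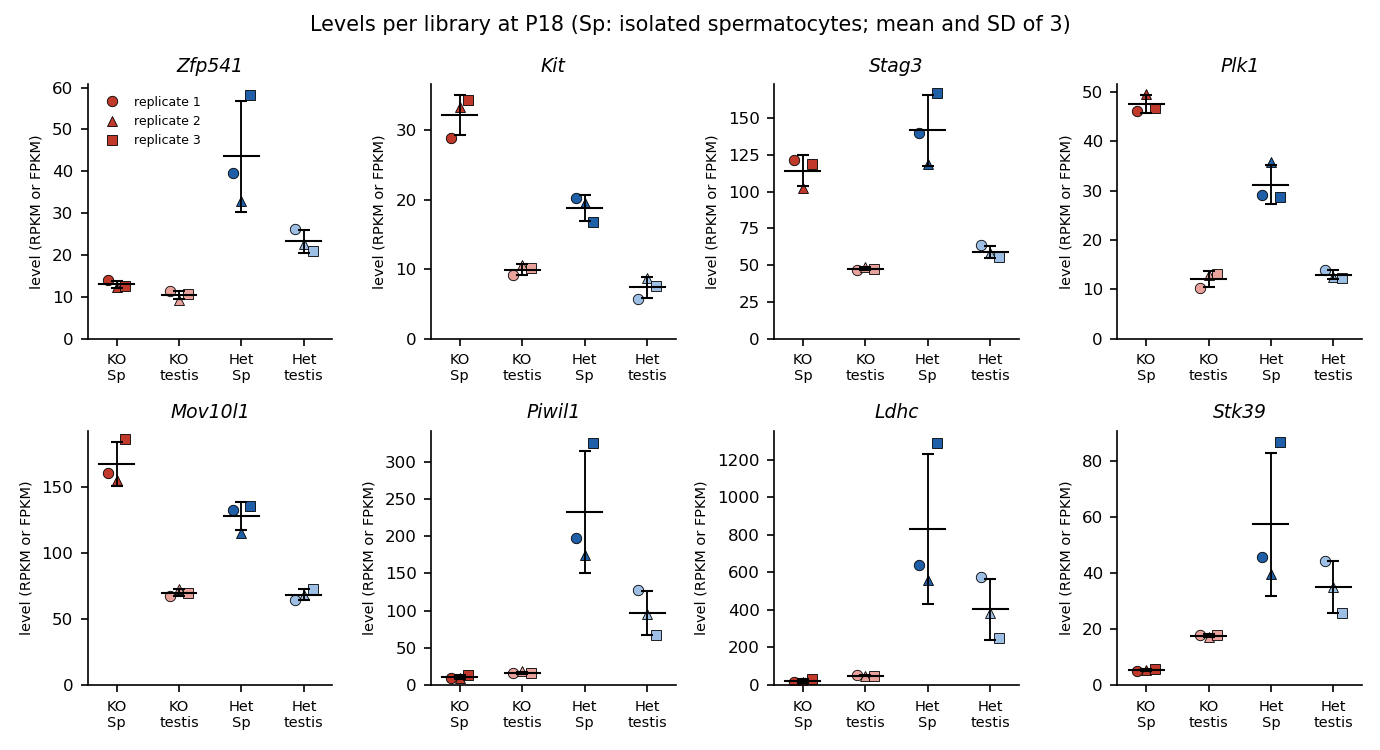
Levels of 8 genes in the 12 P18 libraries (RPKM or FPKM, linear axes from 0; Sp, isolated spermatocytes), with a marker shape per replicate, the mean of 3 and its SD. Kit, Stag3, Plk1 and Mov10l1 are higher in KO spermatocytes than in KO testis, and Ldhc and Stk39 lower. For Piwil1, which did not pass the KO test (adjusted p = 0.0516 with limma), and for Ldhc and Stk39, every KO library lies under every Het library.

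Axoneme genes, which build the motor of the sperm tail, differed in their counts between the genotypes. Of 44 tested genes 1 was higher and 6 lower in KO (median -0.24), against 27 higher and none lower in Het (median 0.85). The KO shares were 2.27% higher and 13.6% lower, against 22.9% and 38.7% of all genes tested. Of the 44, 17 had a mean level under 1 in both KO fractions and passed the filter through Het, so they could hardly be called in KO. Over the other 27, a choice made after seeing the data, 1 was higher and 6 lower in KO (median -0.29) and 19 higher in Het (median 0.86), and 18 of these 19 were not higher in KO. The summed level was taken over all 46 listed axoneme genes with values, the 17 low ones included. It was 156 to 230 in KO spermatocytes and 202 to 213 in KO testis. In Het it was 1326 to 2981 in spermatocytes and 722 to 1381 in testis. Over the 27 genes with a KO level of at least 1 the median interaction was -1.18, against -0.11 over all genes tested, and 1 gene, Armc2, passed the interaction test, where 1.24% of all genes tested were below 0 and called.

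The 1 member that was higher was Dnah8, a dynein heavy chain, with levels of 10.3, 13.7 and 19.3 against 6.53, 7.41 and 6.53 in KO (0.98 ± 0.36, limma adjusted p = 0.0360) and a difference of 1.62 ± 0.36 in Het. The KO call of Dnah8 was lost without KO spermatocyte replicate 2 or 3 or any 1 KO testis library (log2 0.76 to 1.04). Dnah17, another heavy chain of the outer arm, had 0.857, 0.958 and 1.29 against 1.30, 1.37 and 1.38 in KO (-0.28 ± 0.35) and 37.2, 30.2 and 78.4 against 21.4, 14.2 and 8.56 in Het. Gas8, a subunit of the nexin-dynein regulatory complex, had 2.84, 2.70 and 3.52 against 6.47, 7.05 and 6.85 (-1.06 ± 0.18, adjusted p = 0.000314), and Cfap206, a radial spoke adaptor, 0.458, 0.836 and 1.22 against 1.97, 1.93 and 2.16 (-0.95 ± 0.37, adjusted p = 0.0432). Gas8 and Cfap206 were lower without overlap. Armc2, needed for sperm tail assembly, had 0.158, 0.302 and 0.403 against 1.81, 1.93 and 2.06.

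The axoneme counts moved with single libraries. With the 6 KO libraries fitted alone 5 of 26 tested were higher and 10 lower (median -0.16). Over the fits that left out 1 of the 12 libraries the count of lower genes in KO ranged from 3 to 10 and that of higher genes from 0 to 4. The count of higher genes in Het was 15 without Het spermatocyte replicate 3 and 12 without Het testis replicate 3, the libraries with the highest and the lowest Ldhc level of their groups. The count of lower genes in KO was 3 without Het spermatocyte replicate 2, KO spermatocyte replicate 1 or 2, Het testis replicate 2 or any 1 of the KO testis libraries, and 10 without Het spermatocyte replicate 3.

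A broader list was taken from Het libraries only: genes whose level in Het testis rose from P14 to P18 by a log2 difference of at least 2 (adjusted p under 0.05) to a level of at least 5. These 462 late-appearing genes were 3.11% of the 14836 genes tested for age. In KO 7 of them (1.52%) were higher in spermatocytes than in testis and 140 (30.3%) lower, with a median of -0.48. Over all genes tested 22.9% were higher and 38.7% lower in KO. In Het 125 (27.1%) were higher and 38 (8.23%) lower, with a median of 0.58, against 27.2% and 31.7% of all genes tested. The interaction was called below 0 for 18 of the 462 (3.90%, against 1.24% of all genes tested) and above 0 for none. Of the 462, 120 had a mean level under 1 in both KO fractions and passed the filter through Het. Over the other 342, 7 (2.05%) were higher and 133 (38.9%) lower in KO (median -0.60). In Het 99 (28.9%) were higher and 37 (10.8%) lower (median 0.57). Of these 99, 96 were not higher in KO and 20 of those were lower. Of the 280 protein-coding ones 2 (0.714%) were higher and 54 (19.3%) lower in KO (median -0.31), against 31.1% and 35.1% of autosomal protein-coding genes. In Het 107 (38.2%) were higher and 6 (2.14%) lower (median 0.74), against 37.2% and 27.6%. The interaction was called below 0 for 4 of the 280 (1.43%), about the 1.42% of autosomal protein-coding genes. Of the 280, 85 had a mean level under 1 in both KO fractions and passed the filter through Het. Over the other 195, 2 were higher and 52 lower in KO (median -0.39) and 86 higher and 6 lower in Het (median 0.75). Leaving out 1 library took the KO counts of these 195 from 2 to 7 higher and from 28 to 71 lower. It took their count of genes higher in Het from 28 to 138. Over the 280 it took the KO counts from 2 to 9 higher and from 29 to 80 lower, and that of genes higher in Het from 29 to 184. The KO extremes were 9 and 80 without Het spermatocyte replicate 3 and 29 without KO spermatocyte replicate 1, and the Het extremes 29 and 184 without Het testis replicates 3 and 1.

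The 2 protein-coding exceptions that were higher in KO were Them6 and Mroh2a, named here after their values were seen. The count of 7 rose to 35 of 327 tested, with 138 lower, when the 6 KO libraries were fitted alone. With the list held at the 462 genes, the count was 13, 16, 11 and 12 without Het spermatocyte replicate 2, Het spermatocyte replicate 3, Het testis replicate 1 and Het testis replicate 3. With the list chosen anew without Het testis replicate 1 or 3 it was 5 or 14. The Het count of 125 was 44 without Het spermatocyte replicate 3, 219, 65 and 33 without Het testis replicates 1, 2 and 3, so its size rests on how far these libraries lie apart. The Het P18 testis libraries also chose the list, and the Het contrast is given for comparison only.

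**Figure D4:**
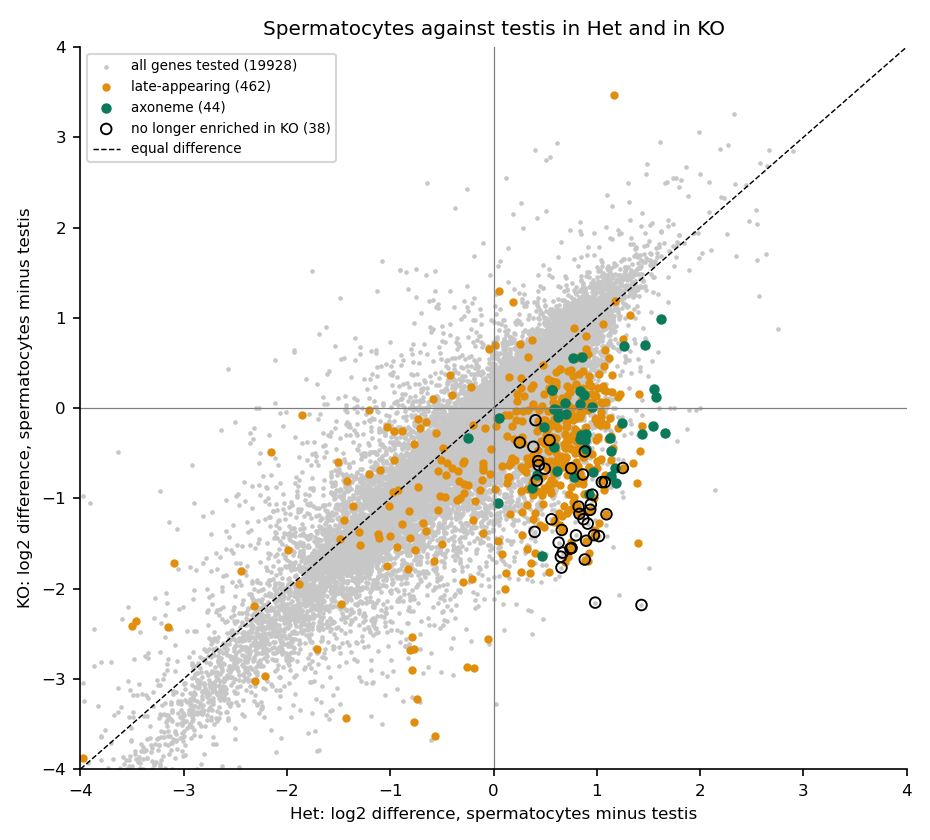
Log2 difference of spermatocytes minus testis in Het (x axis) and in KO (y axis) for 19928 genes, with 239 genes beyond the axis limits not drawn; orange points are late-appearing genes, green points axoneme genes and circles the 38 genes no longer enriched in KO. Most genes follow the dashed line of equal difference, and many late-appearing and axoneme genes lie to the right of 0 in Het and at or under 0 in KO.

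Genes were called no longer enriched where they were higher in Het spermatocytes than in Het testis, not higher in KO, and past the interaction test. Of 723 genes higher in Het by a log2 difference of at least 1, 568 were also higher in KO, 10 were lower and 145 were not called. Of the 155 that were not higher, 98 had a KO level of at least 1, and the others passed the filter through Het. Of the 155, 6 passed the interaction test, and 2 of these are protein-coding, Septin12 and Piwil1. With Het enrichment of any size, a rule added after the data were seen, 5421 genes gave 3988 that were also higher in KO, 80 lower and 1353 not called, and 1283 of the 1433 that were not higher had a KO level of at least 1. Of the 1433, 38 passed the interaction test, 18 of them protein-coding, and 36 of the 38 were lower in KO spermatocytes than in KO testis. Over all genes 247 (1.24%) had an interaction below 0 and 12 (0.0602%) above 0. Of the 247, 38 were higher in Het spermatocytes than in Het testis, 102 were lower and 107 were not called. Most of the 247 were therefore not genes that had lost an enrichment seen in Het.

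Septin12, a septin of the sperm tail ring (chromosome 16, 4986858 to 4997852), had levels of 0, 0.267 and 0.347 in KO spermatocytes and 1.37, 1.16 and 1.5 in KO testis. In Het it had 31.1, 32.0 and 64.7 against 27.4, 21.5 and 12.6. The KO spermatocyte levels were about those of 3 reads on a 1-kb gene, so the KO difference of -1.42 ± 0.33 on the scale of log2(level + 0.5) understates the ratio. The interaction was -2.44 ± 0.47 (limma adjusted p = 0.0396). For Piwil1 (chromosome 5, 128702524 to 128755474) it was -1.92 ± 0.38 (adjusted p = 0.0427).

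Stk39, a kinase of the ion transport pathway (chromosome 2, 68210445 to 68472268), had levels of 4.94, 5.21 and 5.71 in KO spermatocytes and 17.8, 17 and 18 in KO testis (-1.65 ± 0.26, limma adjusted p = 0.000215). In Het it had 45.7, 39.7 and 86.5 against 44.2, 34.9 and 25.8 (0.65 ± 0.26, adjusted p = 0.0486), so the Het groups overlapped. Here the KO libraries were well above the detection limit and did not overlap, and the interaction was -2.30 ± 0.36 (adjusted p = 0.0220). Lrrc61, a leucine-rich repeat gene with 30.6% of its exon bases in other annotated genes, had 1.51, 2.42 and 2.31 against 6.10, 7.02 and 6.85 (interaction -2.12 ± 0.29, adjusted p = 0.0135). H2bc21, a histone H2B gene, Iqank1 and Sox6, an SRY-box factor, had interactions of -2.43 ± 0.36, -2.27 ± 0.36 and -1.79 ± 0.30. Their Het differences were near the threshold too, with limma adjusted p of 0.0450, 0.0436 and 0.0393. Mks1, a protein of the ciliary transition zone, had levels of 2.63, 3.01 and 3.01 against 5.23, 4.9 and 4.16 in KO, and its interaction was -1.07 ± 0.20 (adjusted p = 0.0355).

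The count of 38 was 11 and 18 without Het spermatocyte replicate 2 or 3, 4 and 3 without KO spermatocyte replicate 1 or 2, 0 and 2 without Het testis replicate 2 or 3, and 2, 1 and 1 without KO testis replicate 1, 2 or 3. The smaller count of 6 ranged from 0 to 27 over the same fits, and was 27 without Het testis replicate 1 and 11 without Het spermatocyte replicate 1. In the opposite direction Tmem59l, a membrane protein gene, was more enriched in KO, with levels of 19.6, 22.8 and 21.4 against 11.3, 11 and 12 (0.87 ± 0.08) and a Het difference of 0.31 ± 0.08 (interaction 0.56 ± 0.11, limma adjusted p = 0.0423).

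Promoters are shown for 4 genes of both lists, chosen because they held letters searched for, from RefSeq on GRCm38.p6, 250 bases before to 50 after the start in RefSeq and 5′ to 3′ on the gene's strand. The letters were GGCAGTT (MYB family), GTTGCCA (RFX family), TGACGT (CREB family) and CACGTG (E-box), on both strands, and capitals mark every match. Piwil1 lies at chr5:128735996-128736295, 33722 bases inside the gene interval that the files' annotation gives, and Mks1 at chr11:87852965-87853264, both on the plus strand and both no longer enriched. Cfap161 (chr7:83794790-83795089, minus strand) and Zmynd10, a dynein assembly factor (chr9:107547054-107547353, plus strand), are late-appearing genes. In both, RFX letters and MYB letters read on the other strand share 3 bases.

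Piwil1: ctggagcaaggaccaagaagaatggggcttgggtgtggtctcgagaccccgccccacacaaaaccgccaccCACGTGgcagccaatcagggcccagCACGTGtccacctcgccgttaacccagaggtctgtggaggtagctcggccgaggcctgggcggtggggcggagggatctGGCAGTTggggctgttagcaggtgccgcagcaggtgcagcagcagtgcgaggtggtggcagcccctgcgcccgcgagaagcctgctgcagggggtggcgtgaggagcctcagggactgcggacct
Mks1: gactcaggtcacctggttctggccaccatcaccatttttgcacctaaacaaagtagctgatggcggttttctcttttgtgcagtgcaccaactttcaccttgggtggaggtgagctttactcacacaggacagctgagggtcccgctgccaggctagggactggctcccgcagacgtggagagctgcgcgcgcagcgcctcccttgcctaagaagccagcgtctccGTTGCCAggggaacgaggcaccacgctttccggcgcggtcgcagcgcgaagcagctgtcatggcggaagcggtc
Cfap161: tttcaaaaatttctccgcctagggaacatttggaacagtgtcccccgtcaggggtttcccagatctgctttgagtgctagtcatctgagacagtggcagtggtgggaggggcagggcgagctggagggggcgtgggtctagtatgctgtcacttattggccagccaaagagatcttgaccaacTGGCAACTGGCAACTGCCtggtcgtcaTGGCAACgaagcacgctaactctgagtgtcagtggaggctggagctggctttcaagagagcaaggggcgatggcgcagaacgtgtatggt
Zmynd10: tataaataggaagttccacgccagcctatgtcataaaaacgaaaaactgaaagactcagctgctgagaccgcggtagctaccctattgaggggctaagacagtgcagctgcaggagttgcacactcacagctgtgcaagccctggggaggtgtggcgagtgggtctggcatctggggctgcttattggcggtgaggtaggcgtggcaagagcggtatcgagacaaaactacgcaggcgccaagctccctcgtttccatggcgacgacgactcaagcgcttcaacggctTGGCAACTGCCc

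Of all 20505 promoters 3.94% held the MYB letters, against 9.80% of the 255 late-appearing genes with an entry and 18.2% of 22 no longer enriched (4 promoters). The RFX letters were in 4.48% of all promoters, 11.8% of the late-appearing and 9.09% of the no longer enriched (2 promoters). The CREB letters were in 8.38%, 6.28% and 9.09%, and the E-box letters in 7.63%, 11.4% and 9.09%. Over the 11401 promoters of genes tested the shares were 3.89% for MYB, 4.20% for RFX, 11.4% for CREB and 10.2% for E-box. Such a match is a description of letters in a window and not a binding site. In levels, Zmynd10 had 3.17, 3.48 and 4.86 in KO spermatocytes against 6.30, 6.67 and 6.54 in KO testis and 85.7, 78.1 and 174 in Het spermatocytes. Cfap161 had 0.0510, 0.0850 and 0.0909 against 0.869, 0.861 and 0.648 in KO (-1.16 ± 0.32, limma adjusted p = 0.00794), and its KO spermatocyte levels were at or under the level of 3 reads on a 1-kb gene.

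Among the other lists, X-linked protein-coding genes had 108 higher and 256 lower of 520 in KO (median -0.40), beside 3975 higher and 4486 lower of 12788 autosomal ones (median -0.05, which turned to 0.12 with median-of-ratios scaling). In Het the X-linked counts were 102 and 260 (median -0.44). X-linked differences ran from -6.00 for the Sertoli gene Rhox8 to 1.94 for Dusp9, a phosphatase gene, which had levels of 22.3, 26 and 24.3 against 6.18, 5.62 and 5.96 (SE 0.11). Of 16 tested p53 target and apoptosis genes 7 (43.8%) were higher and 4 (25%) lower in KO (median 0.27), against 22.9% and 38.7% of all genes tested. In Het 4 were higher and 3 lower, and no member passed the interaction test. Apaf1, the apoptosome core, had levels of 7.75, 8.30 and 8.19 against 3.69, 4.04 and 3.82 in KO (0.98 ± 0.08), and Bax, a death effector, differed by 0.90 ± 0.12. Their Het differences were 0.77 and 0.63. Sesn2, a stress-induced growth regulator, was lower by 2.01 ± 0.10 on the log2 scale in KO, and its Het difference was -1.88.

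Interferon-stimulated genes were lower in 6 of 7 tested cases, with Ifi27 at 4.21, 3.45 and 4.05 in KO spermatocytes against 30.6, 30.3 and 32.4 in KO testis (-2.85 ± 0.10) and a smaller difference in Het (-1.98 ± 0.10, interaction -0.87 ± 0.15, limma adjusted p = 0.0254). Of the 22 listed round spermatid genes 12 were not tested because of low levels. Of the 10 tested, 2 (20%) were higher and 2 (20%) lower, against 22.9% and 38.7% of all genes tested. Leaving out 1 library moved these counts from 1 to 3 and from 1 to 2: higher genes were 1 without KO spermatocyte replicate 2 or 3, and lower genes 1 without Het spermatocyte replicate 2 or KO spermatocyte replicate 3. Of 10 tested autosomal retrogenes of X-linked genes 3 (30%) were higher, among them Utp14b (0.81 ± 0.08), and 1 (10%) lower, Gk2 (-0.86 ± 0.35). Over all genes tested these shares were 22.9% and 38.7%. The Gk2 call was lost in 8 of the 12 fits that left out 1 library. Of 30 ribosomal protein genes 5 (16.7%) were higher and 17 (56.7%) lower, with nearly the same counts in Het, 5 and 18.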

How the data were processed

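Poly(A) RNA of 12 P18 libraries was compared, with the Het testis P14 libraries used only to choose late-appearing genes. Per the labels' protocols RNA was extracted with Trizol, and libraries were made with NEBNext poly(A) selection and Ultra II kits. The submitters' processing notes list, with no order of use, edgeR 3.28.1, featureCounts, STAR 2.6.1a, CASAVA 1.9 and GRCm38. The authors deposited RPKM for the spermatocyte libraries and FPKM for the testis libraries, 1 file per library. Whether counting used strand is not given in the sources used here, so reads of overlapping genes cannot be told apart.

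Depth was recovered from what 1 read is worth per library. From 98.5% to 98.6% of values in the 6 KO libraries came out as whole reads (tolerance 0.02 reads). Library depth gives the precision, and floors of 3 reads cover counting error only. Values were rescaled with trimmed mean of M-values (TMM) factors, and a gene was kept if 3 or more libraries reached a level of 1. log2(level + 0.5) was fitted with limma 3.58.1 in R 4.3.3, with 1 mean per genotype and fraction over the 12 libraries. Fold changes are on that scale and understate low genes. P-values were adjusted over all genes tested by the Benjamini-Hochberg method with a threshold of 0.05, and the interaction is the KO difference minus the Het difference. Python 3.11.15 was used for the rest.

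Members and gene lists were chosen with earlier results of these data known, and so were the comparisons. The named genes were Zfp541 and its partners, the 10 largest and 10 most negative KO differences among protein-coding genes with a level of at least 5 and no overlap, the 10 most negative interactions of genes no longer enriched, up to 5 of the most positive interactions (1 gene qualified), and up to 2 members of each list at either end. Of the 10 genes no longer enriched, Septin12 and Piwil1 came by the planned rule. The others came by the rule for any Het size, added after the data were seen. Other list members were added after their values were seen. No libraries were copies of each other. On simulated counts for the KO comparison (19365 genes), 36%, 62% and 76% of genes changed by 1.5, 2 and 4-fold were recovered, and 4%, 38% and 69% for the interaction. The simulation changed a small part of the genes, in KO spermatocytes only, and gave every gene the same dispersion of 0.0073. Far more genes differed between the fractions in the data, so these rates need not hold there. Alternatives were other scalings, pseudocounts and filters, a replicate block, limma-voom on recovered reads, the KO libraries alone and each library left out.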

Additional observations from a re-analysis of the deposited data

Results flagged for a closer look

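For 13 of the named genes, among 247 below 0 and 12 above 0 over all genes tested, the difference between spermatocytes and testis was itself different between KO and Het by the limma interaction test at an adjusted p under 0.05. The interaction values (KO difference minus Het difference, log2) were -2.44 for Septin12, -2.43 for H2bc21, -2.30 for Stk39, -2.27 for Iqank1, -2.19 for AI429214, -2.12 for Lrrc61, -2.00 for 1700006A11Rik, -1.92 for Piwil1, -1.79 for Sox6 and -1.60 for 1520401A03Rik. These 10 were higher in Het spermatocytes than in Het testis and not higher in KO. Armc2, a gene of sperm tail assembly, had -2.10 and the interferon-stimulated gene Ifi27 -0.865, and Tmem59l had 0.562. Except for Armc2 and Ifi27, these genes were named by rules that required the interaction test to be passed, so their passing was fixed in advance. All 13 lost the call under at least 1 alternative. The value ranged from -4.58 to -1.97 for Septin12, from -3.74 to -1.90 for H2bc21, from -3.36 to -1.61 for Armc2 and from -2.45 to -1.30 for 1520401A03Rik. For Stk39 it ranged from -2.48 to -1.96 over the same alternatives, with adjusted p from 0.00603 to 0.165.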

How the results depend on the processing

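The direction of the KO differences held for most named genes, while counts of interaction calls moved widely. Of 96 named genes 83 kept their KO call under every alternative run, and none of the 13 interaction calls did. Hdac1, not called, turned to 0.19 with median-of-ratios scaling, 0.15 with the KO libraries alone (with or without the replicate block), and 0.18, 0.052 and 0.0068 without Het spermatocyte replicate 2, KO spermatocyte replicate 1 and KO testis replicate 3. Leaving out single libraries took it from -0.058 to 0.18. Elmsan1, not called either, turned to 0.033, 0.0048 (the same with the block) and 0.026 under the first 3 of these settings, and single libraries took it from -0.27 to 0.026.

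Median-of-ratios scaling gave 7 interaction calls above 0 and 79 below, 14 genes no longer enriched at any Het size, 13 late-appearing genes higher in KO and 91 lower, and 0.50 for Zfp541. Values as deposited gave 58 above, 2 no longer enriched, 16 at any Het size and 20 late-appearing genes higher. A pseudocount of 0.1 gave 379 below, 11 no longer enriched and 20 late-appearing genes higher. A pseudocount of 1 gave 160 below, 2 and 24 no longer enriched, and 91 late-appearing genes lower. A filter at 5 gave 4334 genes lower in KO, 3415 lower in Het and 7 interaction calls above 0. No filter gave 81 below, 1 and 8 no longer enriched. Limma-voom on recovered reads gave 5 above, 391 below and 85 late-appearing genes lower. The KO libraries alone gave 35 late-appearing genes higher and 0.46 for Zfp541.

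The labels do not say whether the replicate number pairs samples. With each group's mean taken out, same-numbered spermatocyte and testis libraries correlated at 0.104, 0.009 and 0.038 in KO and -0.196, 0.022 and -0.369 in Het. Libraries of other numbers correlated at -0.070 to 0.038 in KO and -0.252 to 0.393 in Het. These values cannot show whether the samples were paired. With the number as a replicate block there were 0 interaction calls above and 0 below 0, and so 0 genes no longer enriched under either rule, against 12 above and 247 below without it (limma). At an unadjusted p under 0.05 the block gave 338 above and 2066 below, against 435 and 2654 without it. At the same threshold, without the block, values as deposited gave 1743 above and 1716 below. Leaving out Het spermatocyte replicate 2 gave 2431 above and 1731 below. The other alternatives gave more below than above, so the balance depended on the scaling and on this library. In the KO libraries alone the block gave 31 late-appearing genes higher and 0.46 for Zfp541.

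Leaving out 1 library at a time gave 4050 to 5910 genes higher and 6596 to 8106 lower in KO, 4692 to 5560 and 5557 to 6299 in Het, 0 to 23 interaction calls above 0 and 20 to 335 below. It gave 0 to 27 genes no longer enriched (0 to 46 at any Het size), 241 to 472 late-appearing genes, the lowest without Het testis replicate 1 at P18, of which 5 to 16 were higher and 95 to 178 lower, and 0.23 to 0.49 for Zfp541. The 247 interaction calls below 0 were 77 without Het spermatocyte replicate 2, 37 and 38 without KO spermatocyte replicates 1 and 2, 154, 20 and 48 without Het testis replicates 1, 2 and 3, and 31, 22 and 21 without KO testis replicates 1, 2 and 3. Genes near 3 reads per library limit the precision, since a KO level under 1 leaves few reads to compare.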
